A study of Mus musculus with 27 samples.

Results

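The genes Aifm2, Coq2, Pdss1, Pdss2, Gch1, Spr, Dhodh and Vkorc1l1 are described here in mouse gastric organoids. They were chosen by function, as genes whose products hold lipid peroxidation in check without GPX4. These 8 genes are all among the 56691 genes of the table, and all 8 were among the 15115 genes with enough counts to be tested. The organoids were grown in Matrigel and proliferating medium from corpus cells of the stomach. Mist1+ organoids came from RFP+ sorted cells of Mist1Cre/ERT2;RFPLSL mice, in which a Cre recombinase at the Mist1 locus marks cells with RFP, and carried no knockout label (called wild type). Knockout organoids were Mist1+ organoids from Gpx4F/F;Mist1Cre/ERT2;RFPLSL mice, which carry the same Cre and reporter alleles and floxed Gpx4. Each genotype was sampled at passages 5, 10 and 15, and organoids labelled Mist1- at passage 5, with the genotype label WT, formed the last group. Each of the 7 groups had 3 libraries, 21 in all. The labels call the mice adult, and state no induction schedule, not how the Mist1- cells were taken, and not whether the 3 libraries of a group were separate cultures or animals, so p-values measure only the spread between libraries.

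Ferroptosis is a form of cell death in which iron drives the peroxidation of membrane phospholipids. GPX4 reduces the resulting lipid hydroperoxides with glutathione, while the other systems trap lipid radicals before they spread. Aifm2 encodes FSP1, a reductase at the plasma membrane that keeps coenzyme Q and vitamin K in their reduced, radical-trapping form. Pdss1 and Pdss2 encode both subunits of the enzyme that builds the isoprenoid tail of coenzyme Q, and Coq2 encodes the enzyme that joins this tail to the ring. Gch1 encodes GTP cyclohydrolase, the rate-limiting enzyme of tetrahydrobiopterin synthesis, and Spr encodes sepiapterin reductase, its last enzyme. Dhodh encodes the pyrimidine synthesis enzyme of the inner mitochondrial membrane that passes electrons to coenzyme Q. Vkorc1l1 encodes a vitamin K epoxide reductase. Messenger RNA was measured here, not the proteins, the lipids or cell death.

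In GENCODE M21 on GRCm38, Aifm2 lies on chromosome 10 at 61715263 to 61739260, Pdss2 on chromosome 10 at 43221486 to 43464882 and Pdss1 on chromosome 2 at 22895522 to 22940266, all on the plus strand. Coq2 lies on chromosome 5 at 100654723 to 100675140 on the minus strand, and Vkorc1l1 on the same chromosome at 129941970 to 129986692 on the plus strand. Gch1 on chromosome 14 at 47153895 to 47189413, Spr on chromosome 6 at 85130176 to 85137766 and Dhodh on chromosome 8 at 109591343 to 109608673 are on the minus strand. All 8 are protein-coding. The RefSeq promoter table on GRCm38.p6 held 7 of the 8, all but Dhodh. The 250 bases before the start are shown for Gch1, which differed most between Mist1+ and Mist1- organoids, and for Pdss1 and Pdss2, whose products form a single enzyme and of which Pdss1 was called in the knockout and Pdss2 was not. A CCAAT match is in capitals.

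Gch1, chr14:47189414-47189663, minus strand: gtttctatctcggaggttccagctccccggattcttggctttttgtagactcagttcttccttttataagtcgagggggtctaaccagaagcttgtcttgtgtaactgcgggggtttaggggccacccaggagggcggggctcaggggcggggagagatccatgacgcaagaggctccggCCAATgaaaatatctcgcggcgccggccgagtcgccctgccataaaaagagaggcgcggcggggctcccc

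Pdss1, chr2:22895272-22895521, plus strand: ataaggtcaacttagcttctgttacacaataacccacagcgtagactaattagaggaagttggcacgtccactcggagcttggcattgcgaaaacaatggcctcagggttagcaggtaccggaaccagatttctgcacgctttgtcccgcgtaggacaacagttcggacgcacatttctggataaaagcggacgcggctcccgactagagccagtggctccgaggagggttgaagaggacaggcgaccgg

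Pdss2, chr10:43221236-43221485, plus strand: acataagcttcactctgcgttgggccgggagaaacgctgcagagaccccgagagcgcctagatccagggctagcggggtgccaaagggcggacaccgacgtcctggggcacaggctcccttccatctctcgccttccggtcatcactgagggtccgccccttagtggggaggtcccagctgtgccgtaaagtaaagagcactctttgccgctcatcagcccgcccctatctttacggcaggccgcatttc

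Short motifs were searched on both strands of the 7 windows and of 32851 promoters of the same length. CCAAT was found in the windows of Gch1, with its first base 70 bases before the start, and Vkorc1l1, 81 bases before it, and in 33.8% of all promoters. GCATGCGC, the core of the NRF1 motif, was found in the windows of Coq2, 49 bases before the start, and Vkorc1l1, 228 bases before it, and in 2.26% of all promoters. TGACNNNGC, the core of the antioxidant response element, was in 0 of the 7 windows and 10.2% of all promoters. CACGTG, TGACGTCA and CACCCCAC were also in 0 of the 7, against 6.02%, 1.55% and 2.58% of all promoters. A missing match says only that these letters are not in the window, and no binding was measured. In the Pdss1 window, 201 bases lie in an exon of the antisense pseudogene A130006I12Rik. Distances are to the RefSeq starts, which for Aifm2, Coq2, Spr and Vkorc1l1 lie inside the gene as placed by GENCODE. The whole Aifm2 window lies within the GENCODE gene, with 0 of its bases in an exon. The whole Coq2 window also does, with 28 of its bases in an exon. Of the Vkorc1l1 window 139 bases lie within the gene and of the Spr window 2, all exonic.

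The 21 libraries held 13805585 to 19608956 counts in genes. Levels are given as fragments per kilobase of exon and library size (FPKM) recomputed with TMM-scaled library totals, as mean ± SD (n = 3), so that genes can be compared per length. Log2 fold changes are from edgeR's quasi-likelihood test on the counts with their SE, and p-values were adjusted across the 15115 genes by the Benjamini-Hochberg method. A gene that rose or fell had an adjusted p below 0.05. In 6 groups the replicates were close, with a biological coefficient of variation of 1.89% to 3.07%, but in wild-type passage 15 it was 21.1%. That group enters the spread shared by all comparisons, so fits without its 3 libraries are given where they change a call of the 8 genes or the count of a pathway list. For comparisons that include wild-type passage 15, fits of only the groups compared are given in their place. Gpx4, the targeted gene, was at 71.7, 76.4 and 77.8 in wild-type passage 5 and at 56.9, 57.4 and 58.8 in the knockout at that passage, without overlap. Its log2 fold change was −0.38 ± 0.14 at passage 5 (edgeR adjusted p = 0.0362), −0.30 ± 0.14 at passage 10 (adjusted p = 0.094) and −0.73 ± 0.14 at passage 15 (adjusted p = 0.000215). In the fit that leaves out wild-type passage 15, the adjusted p was 6.94e-18 for the first of these and 4.52e-12 for the second. With any single library of the 2 passage 5 groups left out, the passage 5 difference was not called (edgeR adjusted p = 0.0524 to 0.101). At passage 15 Gpx4 was at 60.2, 73.9 and 113 in the wild type and at 48.2, 50.3 and 50.9 in the knockout, also without overlap. Without wild-type replicate 1, the library at 113, that log2 fold change was −0.43 (adjusted p = 1.48e-06), and with only the 2 groups fitted it was −0.72 (adjusted p = 0.0564). Gpx4 transcripts remained in the libraries labelled knockout, and counts over the whole gene do not show whether they carry the floxed part.

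The 6 epithelial markers (Epcam, Cdh1, Krt8, Krt18, Krt19 and Cldn18) summed to 2955 to 5940 over all libraries. Of the chief cell markers, Pga5 and Lipf were at 0 in every library and the sum over 4 genes was 3.85 to 24.9. Mist1 itself is a transcription factor of chief and other secretory cells. Fibroblast markers summed to at most 0.278 with Dcn and Lum at 0, and endothelial markers to at most 0.350. The 6 immune markers summed to 2.27 to 13.7. Markers of epithelial subtypes moved with the groups. The 6 pit cell markers (Gkn1, Gkn2, Tff1, Muc5ac, Psca and Ctse) summed to 719 to 759 in Mist1- organoids, 5573 to 5792 in wild-type passage 5, 7745 to 8080 in passage 10 and 983 to 1783 in passage 15. They summed to 1687 to 1715, 2585 to 2861 and 4946 to 5055 in knockout passages 5, 10 and 15. The 8 markers of dividing cells summed to 351 to 352 in Mist1- organoids, 290 to 294, 314 to 324 and 417 to 425 in wild-type passages 5, 10 and 15, and 401 to 408, 448 to 456 and 408 to 416 in the knockout. In bulk RNA, fewer cells of a type and less RNA per cell cannot be told apart.

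**Figure D1:**
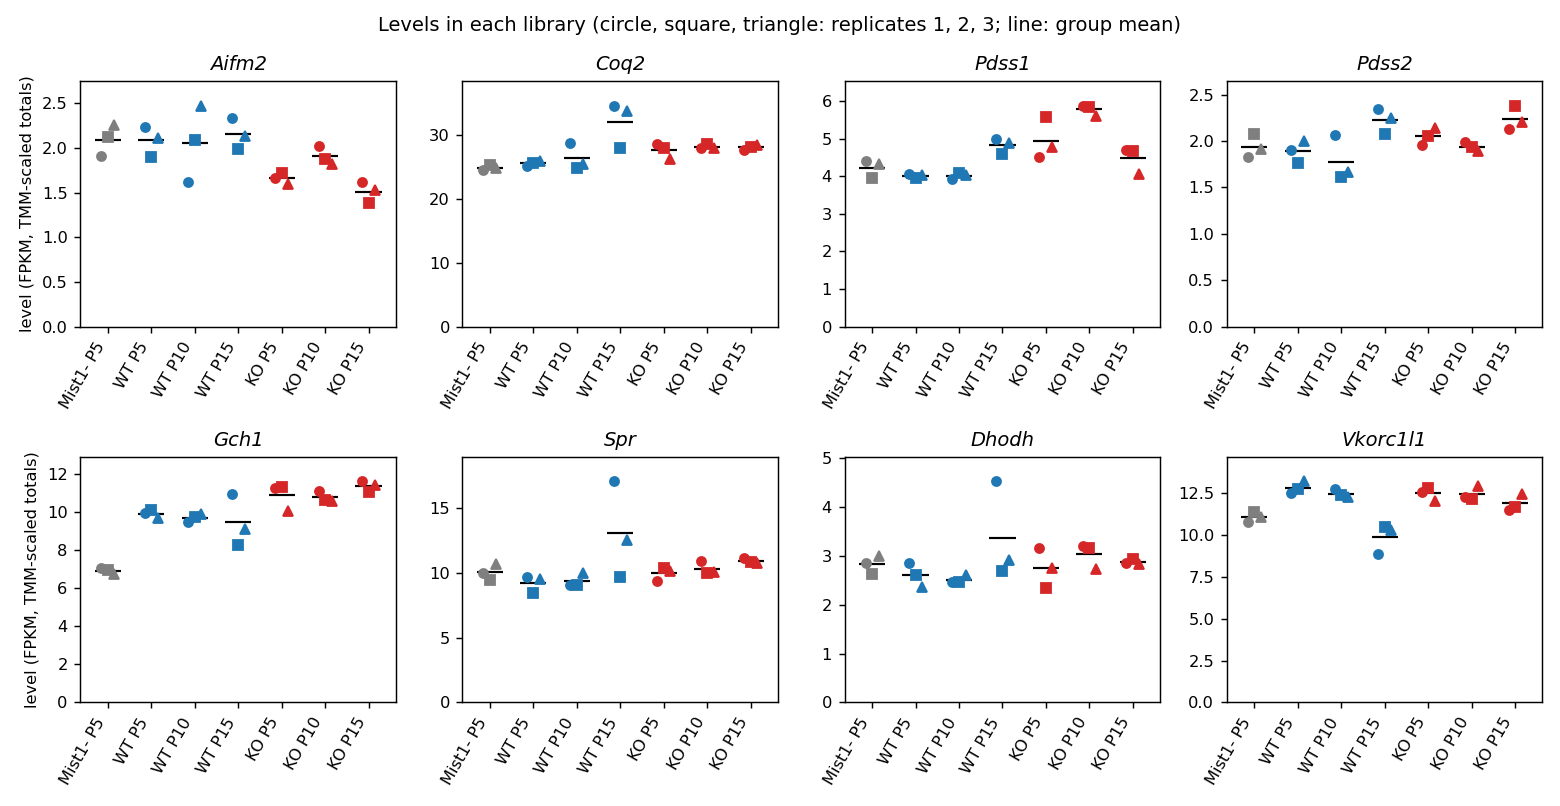
Level of each gene in every library (FPKM with TMM-scaled totals, vertical axes starting at 0), by group, with the group mean as a line and replicates 1 to 3 as circle, square and triangle. Gch1 sits lowest in Mist1- organoids, at 6.77 to 7.04. Pdss1 peaks in knockout passage 10, at 5.61 to 5.88. In wild-type passage 15, Spr and Dhodh scatter widely, with replicate 1 highest.

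All 8 genes were expressed in every library. Per kilobase of exon, Coq2 was the highest of the 8, with a mean of the 7 group levels of 27.5, followed by Vkorc1l1 at 11.9, Spr at 10.4 and Gch1 at 9.86. Pdss1 at 4.61, Dhodh at 2.86, Pdss2 at 2.01 and Aifm2 at 1.92 were lower. The single-library ranges, pooled over the 7 groups, overlapped for Vkorc1l1 (8.87 to 13.2), Spr (8.46 to 17.0) and Gch1 (6.77 to 11.6). Those of Pdss2 (1.61 to 2.38) and Aifm2 (1.38 to 2.47) also overlapped. Spr and Gch1 changed order between libraries, as did Pdss2 and Aifm2, but Vkorc1l1 was above Gch1 in the mean of every group. Dhodh (2.35 to 4.53) overlapped with Pdss1 (3.92 to 5.88) through wild-type passage 15 replicate 1 and with Pdss2 through its lowest libraries. Within every single library, however, Pdss1 was above Dhodh and Dhodh above Pdss2. Coq2, at 24.5 to 34.6, overlapped with none of the other 7. Between the lowest and the highest group mean, the level differed by 1.26-fold for Pdss2, 1.29-fold for Coq2, 1.30-fold for Vkorc1l1, 1.34-fold for Dhodh, 1.42-fold for Spr, 1.43-fold for Aifm2, 1.44-fold for Pdss1 and 1.64-fold for Gch1. Aifm2 rested on the fewest counts, 98 to 193 per library, and Coq2 on 955 to 1436.

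Differences among the 8 were small in each comparison. In Mist1+ against Mist1- organoids at passage 5, 2 of 8 rose (Gch1 and Vkorc1l1) and 0 fell, against 18.8% of all tested genes called higher and 16.2% lower. The median log2 fold change of the 8 was −0.02, against 0.00 over all genes. In the knockout against the wild type, 1 of 8 rose at passage 5 (Pdss1) and 0 fell, with 13% of all genes called higher and 17% lower. At passage 10, 1 of 8 rose (Pdss1 again) and 0 fell, with 15.9% of genes higher and 18.5% lower. At passage 15, 2 of 8 rose (Gch1 and Vkorc1l1) and 2 fell (Aifm2 and Coq2), with 23.6% of genes higher and 25.3% lower. The medians of the 8 were 0.11, 0.13 and −0.15 at the 3 passages, against 0.00, −0.01 and −0.01 over all genes. In either direction, 2, 1, 1 and 4 of the 8 were called in these 4 comparisons, against 35%, 30.1%, 34.4% and 48.9% of all genes. With 8 genes, such counts cannot show whether the 8 were called more or less often than other genes. Mist1+ passage 5 serves both as the group compared with Mist1- and as the control for the knockout, so a low or high value there enters both comparisons.

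Without the wild-type passage 15 libraries, 52.6% of 14984 genes were called in either direction between Mist1+ and Mist1- organoids, 47.4% between knockout and wild type at passage 5 and 52% at passage 10. In these fits the same 2 of the 8 were called for Mist1+, 4 of 8 for the knockout at passage 5 and 3 of 8 at passage 10. The additional calls were Aifm2 (fell), Gch1 and Coq2 (rose) at passage 5, and Gch1 and Dhodh (rose) at passage 10.

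**Figure D2:**
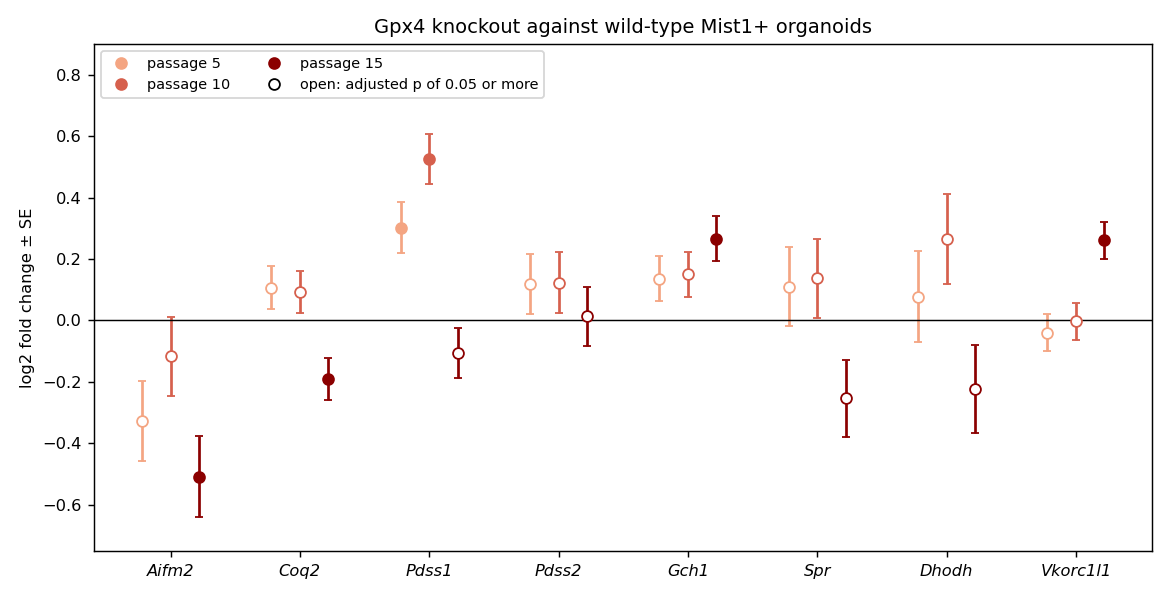
Log2 fold change of each gene in the knockout against the wild type at passages 5, 10 and 15 (points, with SE as bars), filled where the adjusted p was under 0.05. Pdss1 is above 0 at passages 5 and 10 (0.30 and 0.52) and at −0.11 at passage 15, and Aifm2 is below 0 at all 3 passages.

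Aifm2, which encodes the reductase that regenerates reduced coenzyme Q, was lower in the knockout at passage 15. Its levels there were 1.38, 1.53 and 1.62, against 1.99, 2.14 and 2.34 in wild-type passage 15. The groups did not overlap, and the log2 fold change was −0.51 ± 0.13 (edgeR adjusted p = 0.00355). Aifm2 was called at passage 15 in all 13 alternative fits, with log2 fold changes of −0.57 to −0.33, and is the only one of the 4 passage 15 calls that held when only the groups compared were fitted. At passage 5 the knockout libraries were at 1.60, 1.67 and 1.72 and the wild type at 1.90, 2.11 and 2.24. These groups did not overlap either, but the adjusted p was 0.0664 for a log2 fold change of −0.33 ± 0.13, and 0.0309 without the wild-type passage 15 libraries. At passage 10 the knockout was at 1.82, 1.88 and 2.02, inside the wild-type values of 1.61, 2.09 and 2.47. That log2 fold change was −0.12, with a 95% interval of −0.37 to 0.14. In Mist1- organoids Aifm2 was at 1.91 to 2.25, and Mist1+ differed from it by −0.01 (interval −0.26 to 0.25). The knockout difference at passage 15 minus that at passage 5 was −0.18 ± 0.19 (adjusted p = 0.467). Of the Aifm2 exon bases, 5.65% are shared with an antisense gene (Macroh2a2, H2afy2 in GENCODE M21), which had 0 to 6 counts per library.

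Pdss1, a subunit of the tail-building enzyme, was higher in the knockout at passages 5 and 10, while Pdss2 was not called. At passage 10, Pdss1 was at 5.61, 5.84 and 5.88 in the knockout and at 3.92, 4.03 and 4.08 in the wild type. The groups were far apart, with a log2 fold change of 0.52 ± 0.082 (edgeR adjusted p = 3.43e-05), and Pdss1 was called in all 14 alternative fits of that comparison. At passage 5 the knockout libraries were at 4.50, 4.77 and 5.56 and the wild type at 3.95, 4.03 and 4.06. These did not overlap, and the log2 fold change was 0.30 ± 0.083 (adjusted p = 0.00812). Without knockout passage 5 replicate 2, the highest of the 3, it was 0.21 with an adjusted p of 0.0773. At passage 15 the knockout was at 4.06, 4.68 and 4.69 and the wild type at 4.59, 4.87 and 5.00, with overlap and a log2 fold change of −0.11 ± 0.082 (adjusted p = 0.293). From passage 5 to 15 the knockout difference in Pdss1 dropped by 0.41 ± 0.12 on the log2 scale (adjusted p = 0.00906). In Mist1- organoids, at 3.96 to 4.40, Pdss1 was not distinguishable from Mist1+ (log2 fold change −0.07, interval −0.24 to 0.09).

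In the knockout against the wild type, the direction of Pdss1 ran alongside the markers of dividing cells. All 8 of these markers rose in the knockout at passage 5 and at passage 10, and at passage 15, where Pdss1 was not called, 2 rose and 5 fell. The 6 pit cell markers took the opposite course, with 6 fallen at passages 5 and 10 and 5 risen at passage 15, and of 3 tested neck cell markers 1 rose and 2 fell at passages 5 and 10 and 2 rose and 1 fell at passage 15. In Mist1+ against Mist1- organoids, 5 of the 8 dividing cell markers fell and 0 rose, while Pdss1 was not called. Whether the makeup of the cultures had a part in the Pdss1 difference was not tested. Among Pdss1 exon bases, 4.87% are shared with the antisense pseudogene A130006I12Rik and 4.57% with the antisense gene Abi1. The pseudogene had 0 to 3 counts per library, and Abi1 was not called in the knockout at any passage, with log2 fold changes of 0.05, −0.02 and 0.11.

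Pdss2 stayed between 1.61 and 2.38 in all libraries. Its knockout fold changes were 0.12 ± 0.097, 0.12 ± 0.098 and 0.01 ± 0.095 at passages 5, 10 and 15, with intervals from −0.17 to 0.32, and its edgeR adjusted p was 0.36 to 0.925. The ratio of the Pdss1 level to the Pdss2 level, computed after their values were seen, was 2.13 ± 0.11 in wild-type passage 5 and 2.29 ± 0.34 in passage 10. It was 2.41 ± 0.26 in knockout passage 5, 2.98 ± 0.039 in passage 10 and 2.00 ± 0.18 in passage 15. Knockout passage 10 libraries, at 2.95 to 3.02, were above every other library.

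Coq2 encodes the transferase downstream of both. Mist1- organoids were at 24.5, 24.8 and 25.4 and wild-type passage 5 at 25.2, 25.7 and 25.9, with a log2 fold change of 0.04 (interval −0.09 to 0.18). Knockout passage 5 was at 26.2, 27.9 and 28.6, above all 3 wild-type libraries of that passage but not called in the fit over all libraries (0.11 ± 0.069, edgeR adjusted p = 0.268). Without the wild-type passage 15 libraries its adjusted p was 0.0397. At passage 10 the knockout was at 27.9, 27.9 and 28.6 and the wild type at 24.8, 25.5 and 28.8, with overlap and a log2 fold change of 0.09 ± 0.069 (adjusted p = 0.316). It was called higher there in limma with either pseudocount (adjusted p = 0.04 and 0.0403). Those fits used FPKM without TMM scaling, and the median over all genes was 0.039 and 0.058, against −0.011 in edgeR. Coq2 was also called higher with only these 2 groups fitted in edgeR (adjusted p = 0.0481). At passage 15, Coq2 fell in the knockout by 0.19 ± 0.068 on the log2 scale (adjusted p = 0.0262), from 28.0, 33.7 and 34.6 to 27.7, 28.1 and 28.5. The groups overlap through wild-type replicate 2. That call did not hold in 7 of 13 alternative fits, including those without wild-type passage 15 replicate 1 (adjusted p = 0.0746) or replicate 3 (0.11), and those without any of the 3 knockout libraries (0.0746, 0.0611 and 0.05).

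Of the 11 other tested genes of coenzyme Q synthesis, 3 rose and 0 fell in Mist1+ organoids. In the knockout, 0 rose and 2 fell at passage 5, 3 rose and 2 fell at passage 10, and 2 rose and 4 fell at passage 15. Over all genes, 18.8%, 13%, 15.9% and 23.6% were higher and 16.2%, 17%, 18.5% and 25.3% lower in these 4 comparisons. Without wild-type passage 15, the counts of the 11 were 3 risen and 0 fallen in Mist1+ organoids, 1 and 3 in the knockout at passage 5 and 6 and 3 at passage 10, with 52.6%, 47.4% and 52% of all genes called. With only the 2 groups fitted, 0 rose and 2 fell at passage 15, with 19.7% of all genes called. With Pdss1, Pdss2 and Coq2 included, the medians of the 14 were 0.03, 0.10, 0.16 and −0.10 in the 4 comparisons. Coq8a, an atypical kinase of the coenzyme Q complex, had a level of 0.626 ± 0.16 in Mist1- organoids and 1.06 ± 0.12 in wild-type passage 5. It rose in Mist1+ organoids by 0.75 ± 0.18 on the log2 scale (edgeR adjusted p = 0.00201). In the knockout it fell by 0.93 ± 0.18 at passage 5 (adjusted p = 0.000402) and by 0.96 ± 0.18 at passage 10 (adjusted p = 0.000311). Its paralog Coq8b fell by 0.37 and 0.38 at these passages. At passage 15 the direction of Coq8a was the opposite, with 0.864 ± 0.035 in the knockout and 0.608 ± 0.099 in the wild type. With only these 2 groups fitted, its log2 fold change was 0.52 (edgeR adjusted p = 0.0747). Coq10b, a coenzyme Q binding protein gene, rose by 0.61 ± 0.071 in Mist1+ organoids. At passage 15, Hpdl fell by 0.76 and Coq4 by 0.56 in the knockout.

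Mevalonate genes supply the isoprenoid precursors. Of 8, 2 rose and 1 fell in Mist1+ organoids, and in the knockout 0 rose and 1 fell at passage 5, 0 rose and 2 fell at passage 10, and 3 rose and 2 fell at passage 15. The shares over all genes, here and for the further lists, were those beside the coenzyme Q counts. Without wild-type passage 15, 6 rose and 1 fell in Mist1+ organoids, 0 rose and 4 fell in the knockout at passage 5, and 2 rose and 3 fell at passage 10. With only the 2 groups fitted, 1 rose and 0 fell at passage 15. Their medians were 0.17, −0.02, −0.02 and 0.08. Hmgcs1, the cytosolic HMG-CoA synthase, rose by 0.35 ± 0.057 in Mist1+ organoids (edgeR adjusted p = 4.71e-05) and fell by 0.22 ± 0.057 and 0.31 ± 0.057 in the knockout at passages 5 and 10. Nmt1 and Nmt2, the N-myristoyltransferases that anchor FSP1 at membranes, both rose in the knockout at passage 10, by 0.18 each, and Nmt2 fell by 0.21 at passage 5.

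Gch1 showed the largest difference among the 8 between Mist1+ and Mist1- organoids. Its levels were 6.77, 6.97 and 7.04 in Mist1- libraries and 9.68, 9.95 and 10.1 in Mist1+ libraries of the same passage. The groups were well apart, with a 1.43-fold higher level in Mist1+ (log2 fold change 0.52 ± 0.075, edgeR adjusted p = 1.1e-05). The call held in all 14 alternative fits, with log2 fold changes of 0.41 to 0.53. All 6 pit cell markers also rose in this comparison and 5 of 8 dividing cell markers fell. The 4 neck cell markers (Muc6, Tff2, Gkn3 and Glipr1) summed to 842 to 880 in Mist1- and 399 to 402 in Mist1+ organoids, and of the 3 tested, 2 rose and 1 fell. Their part in the Gch1 difference was not tested.

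In the knockout, Gch1 was at 10.1, 11.3 and 11.3 at passage 5, at 10.6, 10.6 and 11.1 at passage 10, and at 11.0, 11.4 and 11.6 at passage 15. Wild-type libraries were at 9.47, 9.75 and 9.91 at passage 10 and at 8.29, 9.13 and 10.9 at passage 15. At passages 10 and 15 the knockout was above all wild-type libraries, and at passage 5 the lowest knockout library lay just below the highest wild-type library. The log2 fold change was 0.14 ± 0.073 at passage 5 (edgeR adjusted p = 0.18), 0.15 ± 0.073 at passage 10 (adjusted p = 0.124) and 0.27 ± 0.073 at passage 15 (adjusted p = 0.00546). Without the wild-type passage 15 libraries, the first 2 had adjusted p of 0.00961 and 0.0041. With only the 2 passage 15 groups fitted, the adjusted p of the last was 0.143. The log2 fold change was 0.38 with wild-type passage 15 replicate 1 left out and 0.18 with replicate 2 left out, both still called.

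Spr, the last enzyme of the pathway, was at 9.41 to 10.7 in Mist1- organoids and 8.46 to 9.64 in wild-type passage 5, and was not called (log2 fold change −0.12, interval −0.38 to 0.13). In the knockout it was not called at any passage in the main fit over all libraries. The log2 fold changes were 0.11 ± 0.13, 0.14 ± 0.13 and −0.25 ± 0.13, with edgeR adjusted p of 0.574, 0.443 and 0.1. With only the 2 passage 10 groups fitted, Spr was called higher (0.15, edgeR adjusted p = 0.0441). Without a low-count filter it was called lower at passage 15 (−0.25, edgeR adjusted p = 0.0351). Of all genes tested, 54.1% and 23.6% were called in these 2 fits. Wild-type passage 15 was at 9.62, 12.5 and 17.0, against 10.8, 10.8 and 11.1 in the knockout. The wild-type values lie on both sides of the knockout values. Without wild-type replicate 2, the lowest, Spr fell by 0.43 in the knockout (adjusted p = 0.000245), and without replicate 1, the highest, the log2 fold change was −0.02. Counts for the pseudogene Spr-ps1 were 0 to 5 per library.

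Pts, which encodes the enzyme between GTP cyclohydrolase and sepiapterin reductase, fell in the knockout at all 3 passages. Its level was 9.01 ± 0.34, 8.90 ± 0.34 and 8.44 ± 0.24 in wild-type passages 5, 10 and 15, and 5.96 ± 0.41, 5.23 ± 0.17 and 6.25 ± 0.35 in the knockout. It fell by 0.60 ± 0.061 (edgeR adjusted p = 1.62e-07), 0.77 ± 0.062 (adjusted p = 4.7e-09) and 0.43 ± 0.061 (adjusted p = 7.95e-06) on the log2 scale. The ratio of the Gch1 level to the Pts level, chosen after the values were seen, was 1.10 ± 0.047, 1.09 ± 0.057 and 1.12 ± 0.15 in the wild type and 1.84 ± 0.23, 2.06 ± 0.093 and 1.82 ± 0.069 in the knockout. The knockout libraries, at 1.57 to 2.13, did not overlap with the wild-type libraries, at 0.973 to 1.27. Of 7 tetrahydrobiopterin genes, including Gch1 and Spr, 1 rose and 0 fell in Mist1+ organoids. In the knockout 0 rose and 1 fell at passages 5 and 10, and 1 rose and 4 fell at passage 15. Without wild-type passage 15, 2 rose and 1 fell in Mist1+ organoids and 1 rose and 1 fell at passages 5 and 10. With only the 2 groups fitted, 0 rose and 1 (Pts) fell at passage 15. The medians were −0.05, 0.11, 0.05 and −0.36. Qdpr, the recycling reductase, fell by 0.37 ± 0.094 at passage 15, with an edgeR adjusted p of 0.102 when only the 2 groups were fitted.

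Dhodh was not called in Mist1+ organoids or in the knockout in the fit over all libraries. It was at 2.63, 2.85 and 3.00 in Mist1- libraries and 2.37, 2.61 and 2.85 in wild-type passage 5 (log2 fold change −0.11, interval −0.40 to 0.18). At passage 10 the knockout was at 2.73, 3.16 and 3.21 and the wild type at 2.46, 2.47 and 2.61. The groups did not overlap, with a log2 fold change of 0.26 ± 0.15 (edgeR adjusted p = 0.176, and 0.00999 without the wild-type passage 15 libraries). At passage 5 the knockout, at 2.35, 2.76 and 3.17, spanned the wild-type values (log2 fold change 0.08, interval −0.21 to 0.37). At passage 15 the wild type was at 2.68, 2.92 and 4.53 and the knockout at 2.83, 2.85 and 2.93, with a log2 fold change of −0.22 ± 0.14 (adjusted p = 0.204). Wild-type replicate 1 alone lay above all other Dhodh values. Without wild-type replicate 2, Dhodh fell by 0.36 (adjusted p = 0.0221).

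Of the 7 other tested genes of pyrimidine synthesis, 2 rose and 3 fell in Mist1+ organoids, 3 rose and 1 fell in the knockout at passages 5 and 10, and 1 rose and 2 fell at passage 15. In the fit that omits wild-type passage 15, 3 rose and 3 fell in Mist1+ organoids, with the counts at passages 5 and 10 as before. With only the 2 groups fitted, 0 rose and 0 fell at passage 15. The medians with Dhodh included were −0.11, 0.07, 0.19 and −0.15. Cad, whose product catalyses the first steps of the pathway, was at 8.07 ± 0.31 in wild-type passage 5 and 12.0 ± 0.42 in the knockout (log2 fold change 0.57 ± 0.086, edgeR adjusted p = 2.49e-05). Umps, the enzyme after DHODH, rose by 0.36 ± 0.055 at passage 5 and by 0.35 ± 0.054 at passage 10. In Mist1+ against Mist1- organoids, Cad fell by 0.46 ± 0.086 and Umps by 0.30 ± 0.055. As with Pdss1 in the knockout, these directions run alongside the dividing cell markers, and that relation was not tested.

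Vkorc1l1 was higher in Mist1+ than in Mist1- organoids, at 12.5, 12.7 and 13.2 against 10.8, 11.1 and 11.4. The groups did not overlap, and the log2 fold change was 0.21 ± 0.060 (edgeR adjusted p = 0.0089). It was not called without a filter on low counts (adjusted p = 0.213) or in limma on the deposited FPKM (0.0861 and 0.0896 with pseudocounts of 1 and 0.1). In the knockout it was at 12.0, 12.5 and 12.8 at passage 5 and at 12.1, 12.2 and 12.9 at passage 10. These overlapped with the wild-type values, which were 12.3, 12.4 and 12.7 at passage 10. The log2 fold changes were −0.04 (interval −0.16 to 0.08) and 0.00 (interval −0.12 to 0.11). At passage 15 it rose in the knockout by 0.26 ± 0.060 (adjusted p = 0.00139), at 11.5, 11.7 and 12.4 against 8.87, 10.3 and 10.5. The groups did not overlap, but the adjusted p was 0.102 when only these 2 groups were fitted.

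Among the 5 vitamin K genes, which include Vkorc1l1, 2 rose and 0 fell in Mist1+ organoids, and in the knockout 0 rose and 2 fell at passage 5, 1 rose and 2 fell at passage 10, and 2 rose and 0 fell at passage 15. When wild-type passage 15 was left out, 3 rose and 0 fell in Mist1+ organoids, with the knockout counts as before. With only the 2 groups fitted, 1 (Ggcx) rose and 0 fell at passage 15. The medians were 0.21, −0.04, −0.22 and 0.15. Nqo1, a quinone reductase that can also reduce vitamin K and coenzyme Q, had the largest change of the 5 in Mist1+ organoids and in the knockout at passages 5 and 10. Its level was 11.6 ± 0.94 in Mist1- organoids, 24.5 ± 0.63 in wild-type passage 5 and 8.34 ± 0.81 in knockout passage 5. It rose by 1.07 ± 0.094 in Mist1+ organoids (edgeR adjusted p = 8.34e-09) and fell by 1.55 ± 0.096 and 1.24 ± 0.094 in the knockout at passages 5 and 10 (adjusted p = 6.99e-11 and 1.71e-09). Wild-type passage 15 had a level of 12.2 ± 1.3 and the knockout one of 10.8 ± 0.24, and Nqo1 was not called there. Ggcx, the vitamin K-dependent carboxylase, fell by 0.53 ± 0.081 at passage 10 and rose by 0.77 ± 0.083 at passage 15. Vkorc1, the paralog of Vkorc1l1, fell by 0.48 ± 0.18 at passage 5 (adjusted p = 0.0451).

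Mboat1 and Mboat2 encode membrane acyltransferases that remodel phospholipids and restrain ferroptosis without GPX4 or FSP1. Mboat2 was at 0.302 ± 0.030 in Mist1- organoids and 1.05 ± 0.095 in wild-type passage 5, and rose in Mist1+ organoids by 1.80 ± 0.12 on the log2 scale (edgeR adjusted p = 1.33e-10). In the knockout it rose at all 3 passages, by 0.56 ± 0.097, 1.34 ± 0.094 and 1.94 ± 0.10, to 1.55, 2.59 and 2.14. Mboat1 rose by 0.48 in Mist1+ organoids and fell by 0.42 and 0.19 in the knockout at passages 5 and 15. With only the 2 groups fitted, the fall at passage 15 had an edgeR adjusted p of 0.143. At passage 10 Mboat1 was not called in the fit over all libraries. Without the wild-type passage 15 libraries it fell there, with a log2 fold change of −0.10 (edgeR adjusted p = 1.35e-05). Of all genes, 52% were called in that fit. The Mboat2 changes exceeded every fold change of the 8 genes in the same 4 comparisons.

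**Figure D3:**
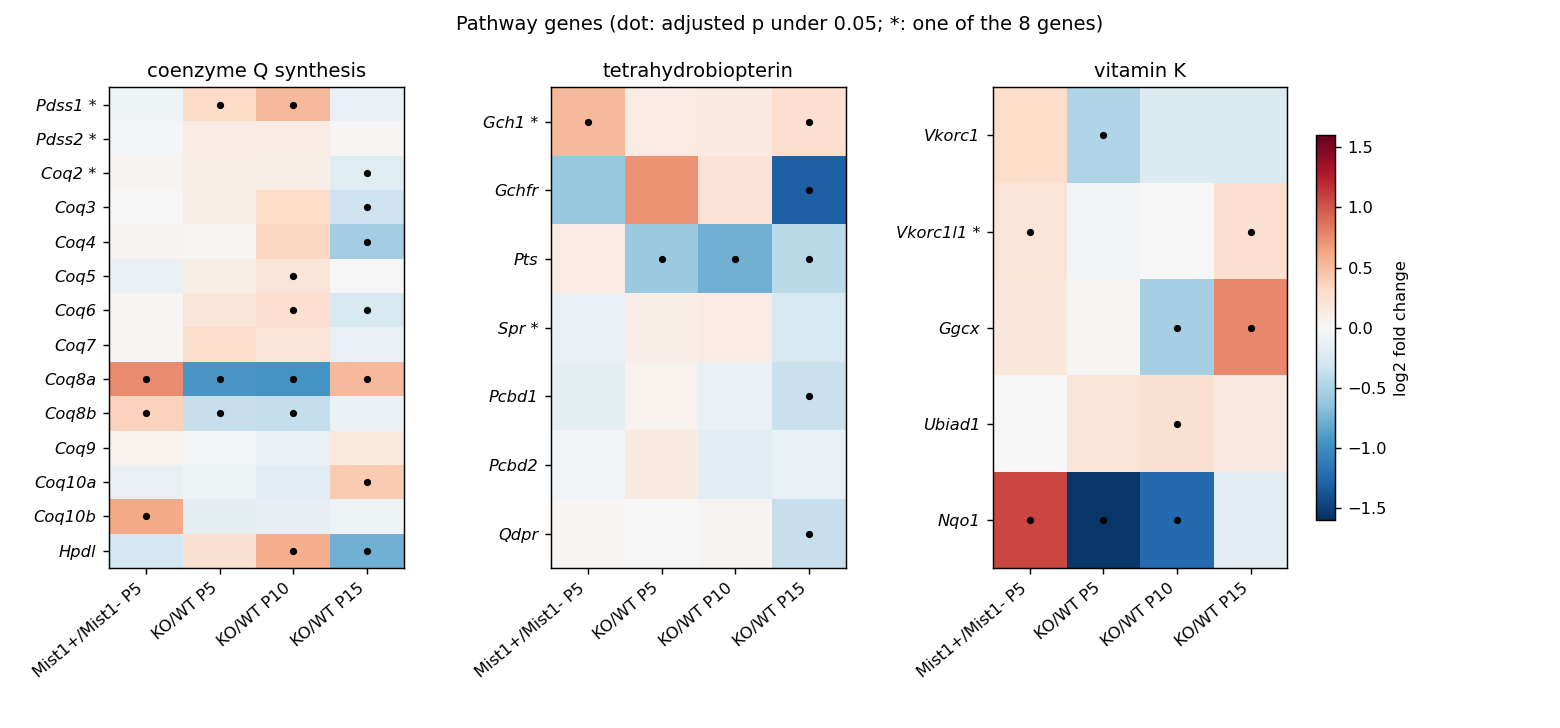
Log2 fold changes (colour) of the tested genes of coenzyme Q synthesis, tetrahydrobiopterin and vitamin K in 4 comparisons, with a dot where the adjusted p was under 0.05 and an asterisk on the genes described here. Pts is below 0 with a dot in all 3 knockout comparisons, while Gch1 is above 0. Coq8a and Nqo1 are above 0 in Mist1+ organoids and below 0 in the knockout at passages 5 and 10. In the knockout at passage 15, Coq8a is above 0.

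With passage, the 8 genes changed little in the first interval. In the wild type, 0 of 8 were called at passage 10 against 5 by edgeR, DESeq2 and limma, and 0 had an unadjusted p under 0.05, with 2.04% of all genes higher and 2.84% lower. In the knockout, 0 of 8 were called by the 3 tools at passage 10 against 5 and 1 (Pdss1) had an unadjusted p under 0.05, with 3.89% of genes higher and 3.72% lower. Pdss1 was higher at passage 10 by 0.22 ± 0.080 (edgeR adjusted p = 0.11), and its libraries did not overlap between the passages. Without the wild-type passage 15 libraries its adjusted p was 0.0319, with 22.2% of genes called in that fit against 18.5% for the wild type over the same passages. In the knockout at passage 15 against 5, 0 of 8 were called by the 3 tools and 0 had an unadjusted p under 0.05, with 5.77% of genes higher and 7.2% lower, and 30% in either direction without the wild-type passage 15 libraries.

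In the wild type at passage 15 against 5, 4 of 8 rose (Spr, Dhodh, Coq2 and Pdss1) and 1 fell (Vkorc1l1), with 24.7% of all genes higher and 26.6% lower. The median of the 8 was 0.25, against −0.02 over all genes. Spr rose by 0.50 ± 0.13 (edgeR adjusted p = 0.00303), Dhodh by 0.36 ± 0.15 (adjusted p = 0.0458), Coq2 by 0.32 ± 0.069 (adjusted p = 0.000571) and Pdss1 by 0.26 ± 0.084 (adjusted p = 0.0133). Vkorc1l1 fell by 0.37 ± 0.060 (adjusted p = 3.58e-05). Only the Vkorc1l1 call held when just the 2 groups were fitted, where Spr had an adjusted p of 0.0936, Coq2 of 0.0536, Pdss1 of 0.0757 and Dhodh of 0.201. Without wild-type passage 15 replicate 1, the log2 fold change of Dhodh was 0.11 (adjusted p = 0.453) and Gch1 fell by 0.18 (adjusted p = 0.0111). Dhodh was also not called without wild-type passage 5 replicate 2 (adjusted p = 0.0929) or 3 (0.154). All 6 pit cell markers fell and 7 of 8 dividing cell markers rose in this comparison. Their part in the changes was not tested.

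The knockout difference itself was compared between passages. From passage 5 to 10 it changed for 0 of 8 genes by edgeR, DESeq2 or limma, with 0 at an unadjusted p under 0.05, against 3.13% of all genes higher and 2.81% lower (20.1% in either direction without wild-type passage 15). From passage 5 to 15 it was higher for 1 of 8 and lower for 2, against 19.7% of genes higher and 18.6% lower. Vkorc1l1 had a difference of 0.30 ± 0.085 (adjusted p = 0.00822), Coq2 of −0.30 ± 0.097 (adjusted p = 0.0199) and Pdss1 of −0.41 ± 0.12 (adjusted p = 0.00906). Within each genotype, the log2 fold change from passage 5 to 15 was −0.07 in the knockout and −0.37 in the wild type for Vkorc1l1, 0.03 and 0.32 for Coq2, and −0.15 and 0.26 for Pdss1. The passage 15 comparisons, other than that of knockout passage 15 against 5, rest on the 3 scattered wild-type libraries.

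**Figure D4:**
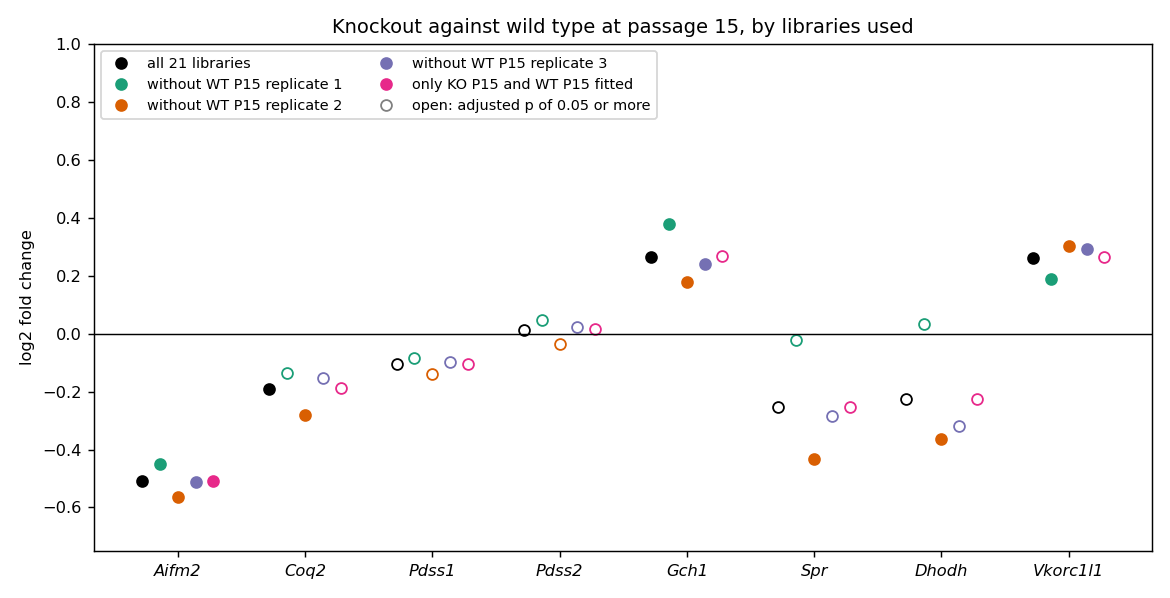
Log2 fold change of each gene in the knockout against the wild type at passage 15 with all 21 libraries, without each wild-type passage 15 library, and with only the 2 groups fitted, filled where the adjusted p was under 0.05. Aifm2 stays filled in all 5 settings shown, while Spr and Dhodh run from near 0 without replicate 1 to −0.43 and −0.36 without replicate 2.

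Likeness between genes was described by Pearson's r of log2 counts scaled to library size over the 21 libraries, which share groups and depth. Pairs among the 8 ranged widely: Dhodh and Spr had r = 0.787 and Spr and Vkorc1l1 r = −0.764, but these were 0.446 and −0.404 over the 18 libraries without wild-type passage 15. Aifm2 and Pdss2 went from −0.425 to −0.732, and Aifm2 and Coq2 from −0.095 to −0.703. Gch1 and Spr, the first and last enzymes of the same pathway, had r = 0.198 and 0.186. Pdss1 and Pdss2 had r = 0.262 and 0.199. Of 12014 protein-coding candidates, the 3 most like Pdss1 were Pum3, Ccnb1 and Gspt1 (r = 0.897, 0.895 and 0.88). Those most like Gch1 were Khdrbs3, Unc93b1 and Slfn2 (0.907, 0.906 and 0.901), and those most like Aifm2 were Clba1, Ripk3 and Setd3 (0.826, 0.817 and 0.808). Spr was most like Uqcrfs1, Naca and Snrpg (0.961, 0.947 and 0.946), Coq2 most like Psmd6, Ciapin1 and Thoc7 (0.924, 0.923 and 0.922), and Dhodh most like Babam1, Prelid1 and Psma7 (0.883, 0.869 and 0.855). Vkorc1l1 was most like St8sia6, Tnfrsf11b and Pde8a (0.941, 0.935 and 0.924), and Pdss2 most like Fundc2, Atp5a1 and Adhfe1 (0.834, 0.82 and 0.82). All of these were picked for the highest r among the candidates. Over the 18 libraries without wild-type passage 15, their r was between 0.69 (Dhodh and Psma7) and 0.922 (Gch1 and Unc93b1, Pdss1 and Gspt1).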

How the data were processed

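RNA-seq of 21 organoid libraries in 7 groups of 3, grouped by the labels, was analysed. The other 6 of 27 samples, sorted cells from 2 diets, are not analysed here. The deposited table gives raw read counts per gene and FPKM computed by the authors. Recomputing FPKM from counts, gene length and the summed counts matched the deposited values in 100% of cases, to within 0.006. Per the submitters' processing notes, the tools were cutadapt 1.9.1, HISAT2 2.2.1 for alignment and HTSeq 0.6.1 for counting, and the genome build GRCm38.p5. How strand was treated is not given in the sources used here, so counts of overlapping antisense genes cannot be told apart. The table's own coordinates are on another build, so positions are from GENCODE M21 and RefSeq by gene identifier or symbol.

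The main analysis ran edgeR 4.0.16 under R 4.3.3 on the counts of all 21 libraries, with 1 mean per group, filterByExpr (minimum count 10, minimum total 15), TMM scaling (factors 0.957 to 1.043) and the robust quasi-likelihood F-test. This kept 15115 genes with 99.91% of counts. The Benjamini-Hochberg adjustment covered every tested gene, and calls needed an adjusted p below 0.05. Each SE was taken from the fold change and its F value, and 95% intervals from the SE. There were 10 comparisons. Total counts were 13805585 to 19608956 per library. Alternatives were median-ratio scaling, no low-count filter, DESeq2 1.42.0, limma 3.58.1 on log2(FPKM + 1) and log2(FPKM + 0.1) of the deposited FPKM, the replicate number as a block, only the groups compared, no wild-type passage 15 libraries, and each library left out. For Gpx4 and the pathway lists, the fits on fewer libraries were added after the data were seen. The code was tested on simulated counts drawn with the same spread in every group. That test did not cover the wider spread of wild-type passage 15. The genes and the pathway and marker lists were chosen with earlier results of these data known. A gene of the tetrahydrobiopterin list is not reported here. Named by rule are the 8 genes, Gpx4, up to 2 other genes per list and comparison with the smallest adjusted p, and the 3 genes most alike each of the 8.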

Additional observations from a re-analysis of the deposited data

Results flagged for a closer look

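The knockout difference changed between passages 5 and 15 for 3 of the 8 genes by edgeR's interaction test, with values of 0.30 for Vkorc1l1, −0.30 for Coq2 and −0.41 for Pdss1 on the log2 scale. The Vkorc1l1 difference was not called when only the 4 groups were fitted (0.27, adjusted p = 0.0704), without a low-count filter (0.26, adjusted p = 0.126) or in limma with either pseudocount (adjusted p = 0.0805 and 0.0809). The Coq2 difference was not called without wild-type passage 15 replicate 3 (−0.26, adjusted p = 0.0538) or knockout passage 5 replicate 1 (−0.27, adjusted p = 0.0523). The Pdss1 difference was called in all alternatives run. With 3 libraries a group, single libraries were not screened for outlying values.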

How the results depend on the processing

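No called value of the 8 genes turned its direction in any alternative. Median-ratio scaling, DESeq2 and the replicate block kept the call in all 80 gene-by-comparison values. With the block, 1 of 8 was called for the knockout at passages 5 and 10 and 4 of 8 at passage 15, as without it. The replicate numbers pair no samples by the data: deviations of same-numbered libraries correlated at −0.031 to 0.027 over 24 pairs. Without a low-count filter 1 gene was called for Mist1+ (2 with the filter). Limma on FPKM, with either pseudocount, called 1 for Mist1+ and 3 for the knockout at passages 5 and 10. With only the groups compared, 4, 5 and 1 were called for the knockout at passages 5, 10 and 15, 1 for wild-type passage 15 against 5 and 1 for knockout passage 10 against 5. Without wild-type passage 15 the counts were 4, 3 and, for knockout passage 10 against 5, 1. Leaving out one library gave 2 to 2 calls for Mist1+, 0 to 1, 1 to 1 and 3 to 6 for the knockout at passages 5, 10 and 15, 0 to 0 and 4 to 6 for wild-type passages 10 and 15 against 5, 0 to 1 and 0 to 0 for the same in the knockout, and 0 to 0 and 2 to 5 for the interactions at 10 and 15. The lone call of knockout passage 5 was lost without knockout passage 5 replicate 2. The libraries in the fit change the number of genes called, and the low-count filter and scaling were redone with them: for the knockout at passage 5, 4547 over all libraries, 7035 with only the groups compared and 7095 without wild-type passage 15, and at passage 15, 7396 against 2735 with only the groups compared. For wild-type passage 15 against 5 it was 7761 against 3631, for passage 10 against 5 it was 738 against 2827 and 2766, for the knockout 1150 against 3059 and 3330 and 1960 against 4606 and 4492, and for the interaction at passage 10, 897 against 2951 and 3018. In limma on FPKM without TMM scaling the share of called genes that were higher was 43.4% for Mist1+ (53.7% in edgeR), 60.4% and 59.9% for the knockout at passages 5 and 10 (43.3% and 46.3%), 59.2% for wild-type passage 15 against 5 (48.1%) and 39.4% for the interaction at passage 15 (51.5%). The cause of each shift was otherwise not tested. Aifm2, with 98 to 193 counts per library, has the widest counting error of the 8.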

Other observations

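The tetrahydrobiopterin, coenzyme Q, pyrimidine and vitamin K lists, members included, were also counted across passages. In the wild type at passage 15 against 5, 4 of 7 tetrahydrobiopterin genes rose and 0 fell, 7 of 14 coenzyme Q genes rose and 2 fell, 5 of 8 pyrimidine genes rose and 0 fell, and 0 of 5 vitamin K genes rose and 3 fell, with 24.7% of all genes higher and 26.6% lower. With only these 2 groups fitted, the counts were 0 and 0, 1 and 1, 2 and 0, and 0 and 3, with 26.4% of all genes called in either direction. In the knockout over the same passages they were 0 and 0, 2 and 1, 0 and 1, and 1 and 0, with 5.77% of genes higher and 7.2% lower. Without wild-type passage 15, the pyrimidine count in the knockout was 0 risen and 3 fallen, and the counts of the other lists named above were unchanged. Of all genes, 30% were called in either direction in that fit. For the 8 mevalonate genes, 3 rose and 4 fell in the wild type over these passages, and 0 and 0 with only the 2 groups fitted. In the knockout 0 of these rose and 0 fell, and 2 rose and 1 fell without wild-type passage 15. Cad rose by 0.64 ± 0.086 (edgeR adjusted p = 3.68e-06) and Hpdl by 1.02 ± 0.18 (adjusted p = 0.000122) in the wild type, and Nqo1 fell by 1.02 ± 0.094 (adjusted p = 1.86e-08). In the knockout, Coq8a rose by 0.64 ± 0.18 (adjusted p = 0.0198) and Coq10a by 0.51 ± 0.12 (adjusted p = 0.00764). The difference between the genotypes in the change of Nqo1 was 1.39 ± 0.14 (adjusted p = 9.4e-08) and in that of Coq8a 1.44 ± 0.26 (adjusted p = 0.000157).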
